A study of Mus musculus with 2 samples.

Results

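The genes of cholesterol and fatty acid synthesis and of their control by sterol regulatory element-binding proteins (SREBPs) were compared between primary chondrocytes and primary dermal fibroblasts of newborn mice. The 32 genes were taken by symbol from the 24421 rows of the count table, and all 32 were found. Chondrocytes came from rib cartilage digested with collagenase and were used within 2 passages, and fibroblasts came from collagenase-digested dorsal skin, whose passage number is not given in the sources used here. Both were taken up in DMEM with serum. Neither cell type carried a genetic change or a treatment in this experiment. Each was sequenced as 1 library of stranded mRNA read from 1 end over 75 bases, and the study used the comparison to find genes that chondrocytes express above fibroblasts. Because there is 1 library per cell type, no difference has a replicate check and no p-value was computed. The interval beside each fold is a 95% Clopper-Pearson interval. It reflects the error of counting alone, and PCR copies were not marked by molecular identifiers.

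The counts summed to 18788599 in chondrocytes and 17563724 in dermal fibroblasts. Both labels were borne out by marker genes. All 8 chondrocyte markers were over 2-fold higher in the chondrocyte library, with *Col2a1* at 1447098 counts against 0, and 7 of 8 fibroblast markers were over 2-fold higher in the fibroblast library, with *Lum* at 3191 counts against 2881 in fibroblasts as the exception. Levels are given as CPM, the counts per 1000000 of a library size scaled by edgeR's TMM method, on which the median log2 fold over all 13825 genes with at least 20 counts in the 2 libraries together was 0.0019.

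Cells make cholesterol from acetyl-CoA by way of mevalonate, isoprenoids, squalene and lanosterol, and they make fatty acids from the same acetyl-CoA. SREBPs are transcription factors held in the endoplasmic reticulum with the escort protein SCAP. When membrane sterol is low, SCAP carries them to the Golgi for cleavage, and the released fragment enters the nucleus and activates genes of both pathways. INSIG proteins retain the SCAP complex when sterol is plentiful. SREBP2 acts mainly on sterol genes and SREBP1 on fatty acid genes. Cartilage has no blood vessels, and dermal fibroblasts in skin lie beside lipid-storing adipocytes and lipid-secreting sebaceous glands.

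All 32 genes were higher in the dermal fibroblast library. The fold over chondrocytes ran from 1.14 for *Acaca* to 13.05 for *Tm7sf2*, with a median of 4.42. It was over 2 for 26 of the 32 genes, against 15.3% of all genes tested, and the whole counting interval lay over 2-fold for the same number, 26, against 10.6% of all genes. None of the 32 was over 2-fold higher in chondrocytes, against 10.9% of all genes. Their summed share of all counts was 0.248% in chondrocytes, against 0.949% in dermal fibroblasts. The bulk libraries cannot tell fewer expressing cells from less RNA per cell.

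**Figure D1:**
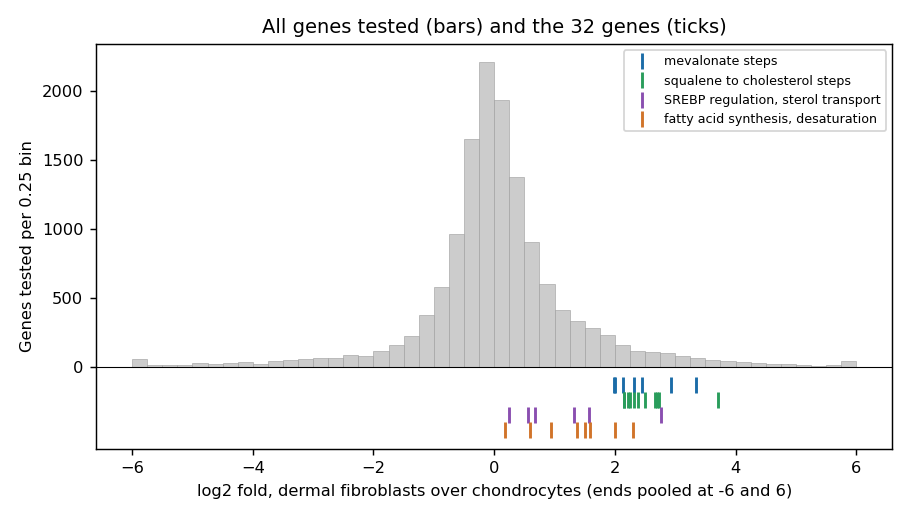
Histogram of the log2 fold (dermal fibroblasts over chondrocytes) of the 13825 genes with at least 20 counts (grey bars, genes per bin of 0.25), with the 32 lipid synthesis genes as coloured ticks below. The bars centre near 0, and every tick lies right of 0, those of the mevalonate and sterol steps at about 2 or more.

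The genes divided by role. The 18 sterol pathway enzymes, from *Acat2* and *Hmgcs1* to *Sc5d* and *Dhcr7*, all passed 2-fold toward dermal fibroblasts, and the smallest fold among them was 3.97. Of the 8 fatty acid genes 5 were over 2-fold higher, and of the 6 genes of SREBP regulation and sterol transport 3 were. The summed level of the sterol enzymes was 659 CPM in chondrocytes and 3512 CPM in dermal fibroblasts, a 5.33-fold difference (interval 5.23 to 5.44). The summed level of the fatty acid genes was 1505 CPM and 4511 CPM, a 2.996-fold difference (interval 2.96 to 3.04).

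**Figure D2:**
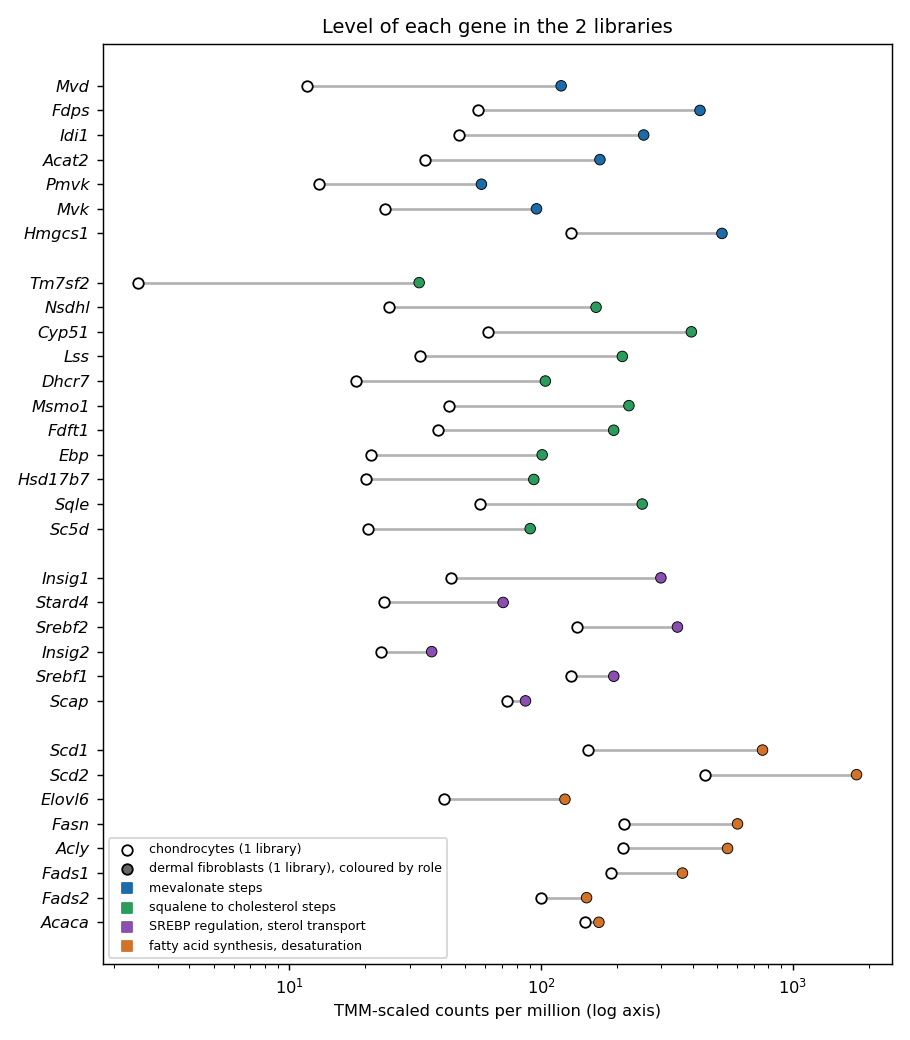
Level of each of the 32 genes in TMM-scaled CPM (log axis), with open circles for the chondrocyte library and filled circles, coloured by role, for the dermal fibroblast library. The filled circle lies right of the open circle in every row, by the longest distance for *Tm7sf2* and the shortest for *Acaca*.

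The 5′ regions of these genes were read to see what the members share in sequence. RefSeq promoter windows of GRCm38.p6, from 250 bases before to 50 bases after a transcript start, were matched by symbol for 25 of the 32 genes. No window was searched for *Fdps*, *Fdft1*, *Sqle*, *Stard4*, *Scd1*, *Scd2* or *Fads1*. The windows were searched on both strands for TCACNCCAC, a form of the sterol regulatory element that SREBPs bind, for the palindrome TCACGTGA, an E-box form that SREBPs also bind, and for CCAAT, the box bound by NF-Y, a factor that acts with SREBPs at many sterol genes. TCACNCCAC was found in 1 of the 25 genes, *Hmgcs1*, against 1.44% of 27025 genes, and TCACGTGA was found in 0 of the 25 genes, against 1.12%. CCAAT was found in 20 of the 25 genes, which is 80.0%, against 41.1% of all genes. In 1 window, 11 of the 25 had 2 or more, which is 44.0%, against 13.3% of all genes. These backgrounds take in all 27025 genes with a window and were not limited to genes counted in the 2 libraries. The genes with CCAAT were 14 sterol pathway enzymes, 4 regulators and 2 fatty acid genes, and the other 5 were *Acat2* of the mevalonate steps, *Scap* of the regulators, and *Acaca*, *Elovl6* and *Fads2* of the fatty acid genes. The 20 genes with CCAAT had a median fold of 4.71 (1.47 to 13.05), and the 5 without had 1.52 (1.14 to 4.96). Since the presence of CCAAT went with the role, the part of each in the folds cannot be told apart. A match of letters is a description of the window, and binding was not measured in this experiment.

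Shown here is the window of *Hmgcs1*, because it holds TCACNCCAC. Other forms of the sterol regulatory element were not searched, so the other genes may hold one. Also shown is, for each role, the window of the CCAAT-holding gene with the largest fold, chosen after the values were seen. These are *Mvd* (mevalonate steps), *Tm7sf2* (squalene to cholesterol steps), *Insig1* (SREBP regulation) and *Fasn* (fatty acid synthesis). The sequences run 5′ to 3′ on the strand of the gene. Capitals mark CCAAT or its reverse complement ATTGG, and in *Hmgcs1* also TCACCCCAC, which starts at position -137 from the transcript start and overlaps no CCAAT. In *Fasn* a CCAAT and an ATTGG overlap. The windows lie at chr13:119690101-119690400 (plus strand), chr8:122443373-122443672 (minus), chr19:6067801-6068100 (minus), chr5:28071162-28071461 (plus) and chr11:120824498-120824797 (minus).
Hmgcs1: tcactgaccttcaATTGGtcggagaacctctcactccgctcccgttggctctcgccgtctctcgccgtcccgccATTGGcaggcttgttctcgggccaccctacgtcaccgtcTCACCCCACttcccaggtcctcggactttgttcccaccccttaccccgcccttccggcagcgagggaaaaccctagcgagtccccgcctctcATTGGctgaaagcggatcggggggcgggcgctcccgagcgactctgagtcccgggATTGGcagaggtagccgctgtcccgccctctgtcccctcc
Mvd: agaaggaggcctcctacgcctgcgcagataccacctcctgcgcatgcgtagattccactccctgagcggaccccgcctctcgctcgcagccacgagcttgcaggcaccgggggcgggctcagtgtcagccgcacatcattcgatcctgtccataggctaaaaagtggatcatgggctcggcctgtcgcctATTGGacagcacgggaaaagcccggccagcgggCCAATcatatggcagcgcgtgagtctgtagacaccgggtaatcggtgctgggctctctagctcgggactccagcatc
Tm7sf2: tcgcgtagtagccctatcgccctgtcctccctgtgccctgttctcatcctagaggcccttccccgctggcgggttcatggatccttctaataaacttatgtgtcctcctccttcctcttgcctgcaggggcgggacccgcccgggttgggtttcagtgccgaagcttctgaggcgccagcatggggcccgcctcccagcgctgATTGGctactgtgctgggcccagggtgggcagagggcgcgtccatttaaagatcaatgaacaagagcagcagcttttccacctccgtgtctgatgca
Insig1: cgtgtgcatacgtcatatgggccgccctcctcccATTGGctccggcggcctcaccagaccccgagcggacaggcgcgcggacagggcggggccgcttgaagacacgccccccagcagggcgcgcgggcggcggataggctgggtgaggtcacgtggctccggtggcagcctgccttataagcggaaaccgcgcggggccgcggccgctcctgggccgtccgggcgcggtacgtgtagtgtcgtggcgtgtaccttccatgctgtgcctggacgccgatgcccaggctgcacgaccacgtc
Fasn: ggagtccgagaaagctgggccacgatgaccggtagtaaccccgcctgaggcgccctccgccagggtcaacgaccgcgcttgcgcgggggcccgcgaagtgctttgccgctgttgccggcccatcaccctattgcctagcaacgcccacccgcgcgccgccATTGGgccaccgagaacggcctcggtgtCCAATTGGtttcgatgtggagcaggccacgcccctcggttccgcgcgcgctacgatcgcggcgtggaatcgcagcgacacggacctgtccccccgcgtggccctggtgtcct

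The mevalonate steps turn acetyl-CoA into the isoprenoid farnesyl diphosphate. *Acat2*, the cytosolic thiolase that joins 2 acetyl-CoA, had 618 counts in chondrocytes and 3151 in fibroblasts and was 4.96-fold higher in the latter (interval 4.55 to 5.42). *Hmgcs1*, the synthase that makes HMG-CoA, had 2362 and 9624 counts, the most reads of this group, and a 3.97-fold difference (interval 3.79 to 4.15). Mevalonate is then phosphorylated by the products of *Mvk* and *Pmvk*. *Mvk* had 431 and 1764 counts (3.98-fold, interval 3.58 to 4.44), and *Pmvk* had 235 and 1066 (4.42-fold, interval 3.83 to 5.11). The intervals of *Hmgcs1*, *Mvk* and *Pmvk* overlapped one another. The folds of these 3 genes were the lowest of the group.

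*Mvd*, the decarboxylase that yields isopentenyl diphosphate, had 211 counts in chondrocytes and 2210 in fibroblasts. At 10.2-fold (interval 8.85 to 11.8) it had the second largest difference of the 32 genes. *Idi1*, the isomerase of that product, had 842 and 4702 counts and was higher in dermal fibroblasts by 5.44-fold (interval 5.05 to 5.86). *Fdps*, which builds farnesyl diphosphate, had 1007 and 7872 counts and was 7.61-fold higher (interval 7.13 to 8.14). The interval of *Mvd* lay wholly above that of *Fdps*, and that of *Fdps* wholly above those of the other 5 genes of the group.

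The squalene to cholesterol steps are specific to sterols. *Fdft1*, squalene synthase, had 697 and 3574 counts (4.99-fold, interval 4.60 to 5.42). *Sqle*, the squalene epoxidase that controls flux toward sterols, had 1021 and 4639 counts (4.42-fold, interval 4.13 to 4.74). *Lss*, which closes the ring to lanosterol, had 592 and 3868 counts (6.36-fold, interval 5.83 to 6.95). Of these first 3 steps, the ring closure showed the largest difference, and its interval did not meet the other two.

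Lanosterol loses 3 methyl groups. *Cyp51*, the demethylase that acts first, was the most counted gene of the sterol steps, with 1097 and 7275 counts (6.46-fold, interval 6.06 to 6.89). *Tm7sf2*, a sterol reductase that acts after it, was the least counted of the 32 genes in chondrocytes, with 45 counts against 603 in dermal fibroblasts. Its fold of 13.05 was the highest of the 32, with the widest interval (9.63 to 18.1). *Lbr*, which encodes another sterol reductase and was listed outside the 32, had 846 and 749 counts (0.862-fold, interval 0.780 to 0.952). The fold of *Tm7sf2* is thus that of this gene, not of the sterol reductases together. *Msmo1*, *Nsdhl* and *Hsd17b7* encode the enzymes of the further demethylation. *Msmo1* had 769 and 4109 counts (5.20-fold, interval 4.82 to 5.63). *Nsdhl* had 447 and 3042 counts (6.63-fold, interval 5.998 to 7.33), and *Hsd17b7* had 362 and 1721 (4.63-fold, interval 4.13 to 5.20). Of these 3 enzymes of 1 reaction series, *Nsdhl* had the largest fold, and its interval lay above those of the other two.

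The last steps move and reduce double bonds. *Ebp*, the isomerase, had 378 and 1858 counts (4.79-fold, interval 4.28 to 5.36). *Sc5d*, the desaturase, had 367 and 1665 counts (4.42-fold, interval 3.94 to 4.96). *Dhcr7*, the reductase that yields cholesterol from its direct precursor, had 328 and 1913 counts (5.68-fold, interval 5.05 to 6.40). The intervals of *Ebp* and *Sc5d* overlapped, and that of *Dhcr7* lay above the interval of *Sc5d*. Apart from *Tm7sf2* and *Mvd*, the 18 sterol pathway enzymes among the members thus lay between 3.97-fold and 7.61-fold.

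**Figure D3:**
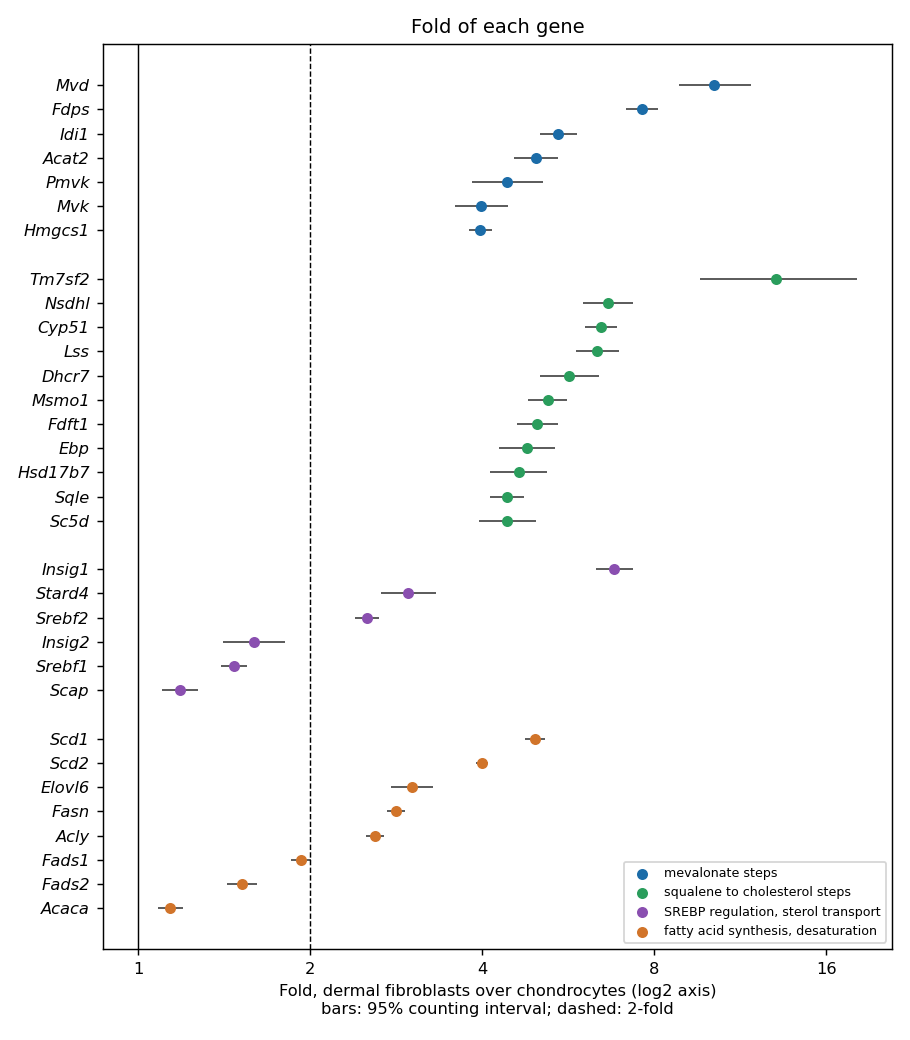
Fold of each of the 32 genes, dermal fibroblasts over chondrocytes, on a log2 axis, with 95% counting intervals as bars and the 2-fold line dashed. The sterol pathway enzymes (blue and green) all lie right of 3.9-fold, while *Scap*, *Srebf1*, *Insig2*, *Acaca*, *Fads2* and *Fads1* lie between 1 and 2-fold.

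The regulators were less uniform than the enzymes. *Insig1*, which retains SCAP and is itself an SREBP target, had 787 counts in chondrocytes and 5505 in fibroblasts, a 6.81-fold difference (interval 6.32 to 7.35). *Insig2*, its relative with the same retention role, had 413 and 676 counts and a 1.59-fold difference (interval 1.41 to 1.81). Within each library, the count of *Insig1* was 1.91 times that of *Insig2* in chondrocytes and 8.14 times in dermal fibroblasts. This ratio, which no scaling between libraries alters, was 4.27 times as large in dermal fibroblasts (interval 3.69 to 4.94).

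*Srebf2*, which encodes SREBP2, had 2482 and 6404 counts and was higher in dermal fibroblasts by 2.51-fold (interval 2.40 to 2.63). *Srebf1*, which encodes SREBP1, had 2365 and 3577 counts and was 1.47-fold higher (interval 1.40 to 1.55). The 2 genes had nearly equal counts in chondrocytes, with *Srebf1* at 0.953 of *Srebf2*, but in dermal fibroblasts the ratio was 0.559. The change in the ratio was 0.586 (interval 0.546 to 0.629). *Scap* had 1314 and 1595 counts and the smallest difference of the group, 1.18-fold (interval 1.10 to 1.27). *Stard4*, whose protein carries cholesterol between membranes, had 427 and 1300 counts (2.96-fold, interval 2.66 to 3.31). The 3 regulators below 2-fold were thus *Scap*, *Srebf1* and *Insig2*.

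Fatty acid synthesis starts from cytosolic citrate. *Acly*, which splits citrate into acetyl-CoA, had 3801 counts in chondrocytes and 10130 in fibroblasts (2.59-fold, interval 2.50 to 2.69). *Acaca*, the carboxylase that makes malonyl-CoA, had 2671 and 3122 counts and the smallest fold of all 32 genes, 1.14 (interval 1.08 to 1.20). *Fasn*, fatty acid synthase, had 3823 and 11099 counts (2.83-fold, interval 2.72 to 2.93). The genes before and after *Acaca* in the pathway were therefore more than 2-fold higher in dermal fibroblasts and *Acaca* was not.

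*Elovl6*, which lengthens palmitate, had 740 and 2288 counts (3.01-fold, interval 2.77 to 3.27). The stearoyl-CoA desaturases *Scd1* and *Scd2*, which place the first double bond and lie near each other in GRCm38 (chr19:44394450-44407709 and chr19:44293676-44306864), had the largest folds of the group. *Scd1* had 2744 and 13948 counts (4.95-fold, interval 4.75 to 5.16). *Scd2* had 8026 and 32964 counts, the most of the 32 genes in both libraries, and a 3.999-fold difference (interval 3.90 to 4.10). The count of *Scd1* was 0.342 of that of *Scd2* in chondrocytes and 0.423 in dermal fibroblasts, a change of 1.24 (interval 1.18 to 1.30). *Scd2* was thus the more counted desaturase in both cell types.

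*Fads1* and *Fads2*, the desaturases of polyunsaturated fatty acids, lie next to each other on the same chromosome (chr19:10182877-10196874 and chr19:10062765-10101503). *Fads1* had 3390 and 6706 counts and was 1.93-fold higher in dermal fibroblasts, with an interval (1.85 to 2.01) that reached 2. *Fads2* had 1790 and 2789 counts and was 1.52-fold higher (interval 1.43 to 1.61). With *Fads1* just outside the threshold at 1.93, the gene just inside it was *Srebf2* at 2.51, so no member lay close above 2-fold.

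Ratios between the arms, taken within a library, do not depend on the scaling. The 18 sterol pathway enzymes together had 0.438 counts for each count of the 8 fatty acid genes in chondrocytes and 0.779 in dermal fibroblasts, a change of 1.78 (interval 1.74 to 1.82). *Fasn* had 1.62 counts per count of *Hmgcs1* in chondrocytes and 1.15 in dermal fibroblasts, a change of 0.713 (interval 0.672 to 0.755). *Srebf1* had 0.619 counts per count of *Fasn* in chondrocytes and 0.322 in dermal fibroblasts, a change of 0.521 (interval 0.489 to 0.556). The sterol arm was thus further above its chondrocyte level than the fatty acid arm, and *Fasn* further than *Srebf1*.

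Levels of different genes were compared per kilobase of the longest coding transcript (FPKM), for the 31 genes with such a length. *Hmgcs1*, the most counted gene of the mevalonate steps, had no length in the annotation used and has no place in the order, so the ranks hold for the other 31 only. In chondrocytes *Scd2* led at 82.1 FPKM, followed by *Fads2* at 66.2, *Fads1* at 54.7, *Acly* at 47.9 and *Fdps* at 45.6. In dermal fibroblasts *Fdps* led at 347 FPKM, followed by *Scd2* at 328, *Scd1* at 157, *Acly* at 124 and *Insig1* at 113. The lowest level in chondrocytes was that of *Tm7sf2* at 1.68 FPKM, and the lowest in dermal fibroblasts was that of *Insig2* at 13.6 FPKM, next to *Stard4* at 13.9. Fatty acid desaturases headed the order in chondrocytes, while an isoprenoid enzyme headed it in dermal fibroblasts. The authors' counting program is not named, and a different transcript choice would move these levels but not the folds.

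Other genes of lipid metabolism were set beside the members. Of 18 other synthesis genes with at least 20 counts, 10 were over 2-fold higher in dermal fibroblasts and 1 in chondrocytes, with a median fold of 2.27. Over all genes tested, the shares were 15.3% and 10.9%. *Acss2*, which makes acetyl-CoA from acetate, had 108 and 1154 counts (10.4-fold, interval 8.54 to 12.8). *Cyb5r3*, the reductase that feeds electrons to desaturases and the most abundant of the list, had 7014 and 8998 counts (1.25-fold). *Me1*, a malic enzyme that supplies NADPH, had 4452 counts in chondrocytes and 1477 in fibroblasts, which put its fold at 0.323 (interval 0.304 to 0.343), the reverse of the 32 genes.

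Of 18 genes of sterol uptake, storage and efflux, 11 were over 2-fold higher in dermal fibroblasts and 1 in chondrocytes, with a median fold of 3.21. The shares of all genes tested were 15.3% and 10.9%. *Ch25h*, which makes 25-hydroxycholesterol, a sterol that blocks SREBP release, had 25 and 478 counts (18.6-fold, interval 12.5 to 29.1). *Lrp1*, a large lipoprotein receptor, had 19284 and 41391 counts (2.09-fold). *Soat1*, which esterifies cholesterol for storage, was the gene higher in chondrocytes, with 3776 counts against 1608 and a fold of 0.415 (interval 0.391 to 0.440). Both the genes that bring sterol in or out and those that make it were thus mostly higher in dermal fibroblasts.

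The genes that process or degrade SREBP and INSIG proteins gave another picture. Of the 13, dermal fibroblasts had 3 over 2-fold higher, chondrocytes had 0, and 10 lay within 2-fold, with a median fold of 0.955. Among all genes tested, 15.3% were over 2-fold higher in dermal fibroblasts and 10.9% in chondrocytes. *Mbtps1*, the protease of the first SREBP cleavage, had 4348 and 3736 counts (0.837-fold, interval 0.801 to 0.874). *Erlin1*, which binds sterol-regulated enzymes for degradation, had 1339 and 795 counts (0.578-fold, interval 0.529 to 0.632). *Mlxipl*, which encodes the carbohydrate-responsive factor ChREBP, had 9 and 140 counts (15.1-fold, interval 7.75 to 33.8). For fatty acid oxidation, 2 of 14 genes exceeded 2-fold toward dermal fibroblasts and 1 toward chondrocytes, against the same shares of all genes. The median fold was 1.07. *Ppara*, with 19 and 55 counts (2.82-fold, interval 1.65 to 5.03), was 1 of the 2. *Ppargc1a*, the gene higher in chondrocytes, had 51 and 24 counts (0.458-fold, interval 0.270 to 0.758). *Hadha*, the trifunctional protein subunit, had 2566 and 2651 counts (1.01-fold, interval 0.952 to 1.06). *Cpt1a*, the carnitine transferase that admits fatty acids to mitochondria, had 778 and 1994 counts (2.50-fold, interval 2.30 to 2.71), and *Acadvl*, a dehydrogenase of long chains, had 1440 and 1170 (0.791-fold, interval 0.732 to 0.855). The medians of both lists lay near that of all genes.

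**Figure D4:**
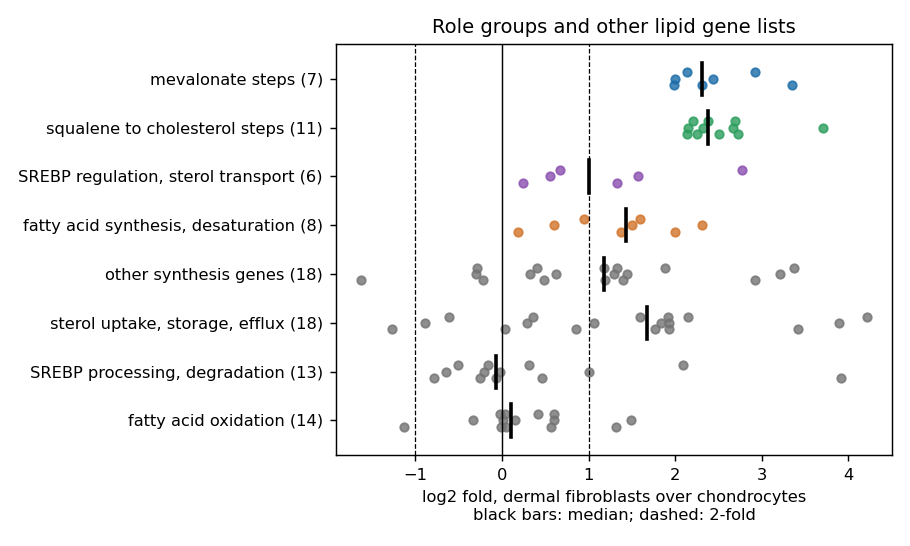
Log2 fold (dermal fibroblasts over chondrocytes) of each gene with at least 20 counts, by role group (coloured) and by other lipid gene list (grey), with the number of genes in parentheses, medians as black bars and 2-fold as dashed lines. The mevalonate and squalene to cholesterol steps sit together right of the 2-fold line, while SREBP processing and fatty acid oxidation spread around 0.

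Markers of other cell types were read in the same comparison. In it, 15.3% of all genes tested were over 2-fold higher in dermal fibroblasts and 10.9% in chondrocytes. Of 8 adipocyte markers with at least 20 counts, 5 were over 2-fold higher in dermal fibroblasts and 0 in chondrocytes, with a summed level of 559 CPM in chondrocytes and 3546 CPM in dermal fibroblasts. *Lpl* had 5900 and 56245 counts and *Adipoq* 136 and 1397, while *Plin1*, the lipid droplet coat of adipocytes, had 607 and 562 and *Lep* had 1 and 7. Keratinocyte markers summed to 15.9 CPM and 329 CPM, with 6 of 8 over 2-fold higher in dermal fibroblasts. Of the 7 sebaceous gland markers 4 had at least 20 counts. Of these, 0 were over 2-fold higher in dermal fibroblasts and 2 in chondrocytes, and *Awat1* was at 0 in both libraries. The list summed to 10.5 CPM and 12.2 CPM, of which *Soat2* made up 6.75 CPM and 10.6 CPM. Macrophage markers summed to 116 CPM and 181 CPM and skeletal muscle markers to 1586 CPM and 1209 CPM. Of the markers of cycling cells, 10 of 10 were lower in dermal fibroblasts, 4 of them by over 2-fold, with summed levels of 1310 CPM and 695 CPM. The part of adipocytes, epidermal cells and the rate of division in the folds of the 32 genes was not tested.

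A few members share sequence or position with other genes. Of the 75-base words in the coding transcripts of *Acat2*, 36.6% also occur in *Acat3*, which had 5 and 8 counts. Of those of *Tm7sf2*, 16.9% also occur in the transcripts of *1110014N23Rik*. No count is given here under that symbol, so the value of *Tm7sf2*, with 45 counts in chondrocytes, is less certain. For *Scd1* and *Scd2* the shares were 3.23% or less, all with each other or with *Scd3* and *Scd4*, which had at most 39 counts. *Elovl6* shared 0.204%, and 26 others shared none, while *Hmgcs1* was not searched. In GRCm38 the span of *Fdft1* overlaps that of *Ctsb* by 774 bases, and *Ctsb* had 8188 and 36521 counts (4.34-fold). The value of *Fdft1* is therefore also less certain. The overlaps of *Srebf1* with *Rai1*, *Acaca* with *Tada2a* and *Tm7sf2* with *Vps51* were 114, 10 and 9 bases. *Vps51* had 611 and 607 counts. Whether the counting used the strand is not stated, and processed pseudogenes were not searched.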

How the data were processed

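Per the submitters' processing notes, base calls were from CASAVA 1.8.2, and TopHat2 2.0.13, Bowtie2 2.2.3 and SAMtools 0.1.19 were used with mm10. For each gene symbol the authors deposited the raw read count of 1 library of each cell type, with no normalization. The counting program, its annotation and its strand setting are not given in the sources used here. Both count columns were matched to a sample by name.

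Library sizes were scaled by TMM (edgeR 4.0.16 in R 4.3.3) on all genes with a count above 0. A floor of 3 counts applied to every fold, which touched none of the 32 genes, and intervals were Clopper-Pearson intervals of the share of the 2 counts (Python 3.11.15, scipy 1.17.1). Ratios within a library were compared by conditional odds ratios with exact intervals. Background percentages are over all genes with at least 20 counts summed. With 1 library per group nothing was tested across genes. The calculations were tested on simulated data. Transcript lengths were from GENCODE vM1, gene spans and promoters from RefSeq GRCm38.p6, the build of mm10.

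The members and gene lists were chosen with earlier results of these data known. All 32 members are named. From each other lipid gene list, the most abundant gene is named, with those of the largest and smallest fold among genes with at least 100 counts. *Lbr*, *Ppara* and *Ppargc1a* were named outside this rule after their values were seen. The marker genes were not named by this rule. In all, 4 genes of the other lists are not reported here. Alternatives were 5 other scalings (total counts, DESeq2 1.42.0 median-of-ratios, upper quartile, total counts less each library's 10 most abundant genes, *Actb*), a pseudocount of 1, count floors at 1 and at 10, other filters and other thresholds.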

Additional observations from a re-analysis of the deposited data

How the results depend on the processing

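No paired analysis was possible because there was a single library for each cell type. All 32 genes stayed higher in dermal fibroblasts under the 5 other scalings, both other floors and the pseudocount. The number over 2-fold higher was 26 to 29 over 12 alternatives, 27 with total counts (*Fads1* added) and 29 at 1.5-fold, and the number over 2-fold higher in chondrocytes was 0 under each. Of 256 values of single genes under 8 alternatives, 41 left the counting interval and 0 changed direction. Total counts raised each log2 fold by 0.14, to medians of 2.45 (mevalonate steps), 2.515 (squalene to cholesterol steps), 1.14 (regulation) and 1.57 (fatty acid genes). Scaling by *Actb* shifted each by -0.12, to 2.26 for the squalene to cholesterol steps and 1.31 for the fatty acid genes. Over all genes, the numbers higher in dermal fibroblasts and in chondrocytes were 2111 and 1504 (58.4% in dermal fibroblasts). They became 2409 and 1278 with total counts (65.3%) and 1908 and 1745 with *Actb* (52.2%). The numbers were 3280 and 2653 at 1.5-fold and 1301 and 863 with at least 200 counts. With the whole interval beyond 2-fold, 968 genes were higher in chondrocytes. Depth limited *Tm7sf2* most, with 45 counts in chondrocytes.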
